A study of Mus musculus with 6 samples.

Results

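The genes described here encode the PIWI proteins, the Tudor domain proteins, the factors that make piRNAs and the components of germ granules. They were taken by symbol from a list of 32 genes, of which 31 were among the 23361 genes of the table and 30 had enough fragments to be tested, out of 16658 genes tested. The tested members were read in whole testis RNA from 3 mice given an inhibitor and 3 mice given vehicle. The inhibitor group received 1NaPP1-HCl dissolved in vehicle, and the control group received the vehicle alone, a mixture of saline, cremophor and ethanol, at 10 µL per g of body weight. Daily injections lasted 9 days, 5 days of recovery followed, and the testes were taken on day 14. All 6 mice were C57BL/6J, about 120 days old and homozygous for Ret V805A, a substitution that lets a bulky kinase inhibitor reach the receptor through which GDNF acts on spermatogonia. The comparison asked what differed in the testis after GDNF signalling had been inhibited. No mice with an unsubstituted Ret were among the samples, so an effect of the compound on another target cannot be told apart from one on Ret. The labels name each library as a separate mouse.

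piRNAs are small RNAs of the germ line that guide PIWI proteins to transposon transcripts and other RNAs. In the mouse testis their long precursors are cut and trimmed in germ granules, the dense cytoplasmic bodies known as intermitochondrial cement in spermatocytes and as the chromatoid body in round spermatids. Tudor domain proteins hold these granules together by binding methylated arginines of the PIWI proteins. The great wave of piRNAs in the adult appears in pachytene spermatocytes, under the transcription factor A-MYB, which the member Mybl1 encodes.

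Fragments counted in genes totalled 29069386, 23144295 and 28871408 in inhibitor mice 1, 2 and 3, against 24788696, 43127892 and 29227420 in control mice 1, 2 and 3. Inhibitor mouse 3 stood apart from the other inhibitor mice. Its counts differed from theirs with chi-square values of 12.1 and 13.1 per degree of freedom over genes, against 4.94 between inhibitor mice 1 and 2 and 4.22 to 6.09 between control mice. Calls that depend on inhibitor mouse 3 are given with and without it, and estimates that move by more than 1.5 times without it are listed together after the account of the members. In whole testis, fewer cells of a type and less RNA per cell cannot be told apart.

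The levels of the members, on the FPKM scale (fragments scaled to transcript length and library size, as deposited), ran over a wide range. In control mice, 8 members averaged above 100 FPKM, 19 lay from 10 to 100, 3 from 1 to 10 and 1 below 1. The median control level of the members was 33.7 FPKM, against 6.26 FPKM for all tested genes. Mael, which encodes a granule protein needed for transposon silencing, was the highest, at 973 ± 49.3 FPKM in inhibitor mice and 868 ± 39.0 FPKM in control mice (SD, n = 3 each). Gtsf1 followed at 532 ± 36.6 FPKM in inhibitor mice and 480 ± 23.0 FPKM in control mice (SD, n = 3 each). Next in the control order came Gtsf1l, Ddx25, Ddx4, Tdrd6, Piwil1, Tdrd7 and Piwil2, and the control ranges of neighbours among the first 9 members did not overlap. Below them the order was less distinct: over the whole order, 11 of 30 pairs of neighbours had overlapping control ranges. At the low end, Exd1, Pnldc1, Morc1 and Piwil4 averaged 5.50, 4.39, 1.73 and 0.0718 FPKM in inhibitor mice, against 5.61, 4.77, 1.96 and 0.152 FPKM in control mice.

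**Figure D1:**
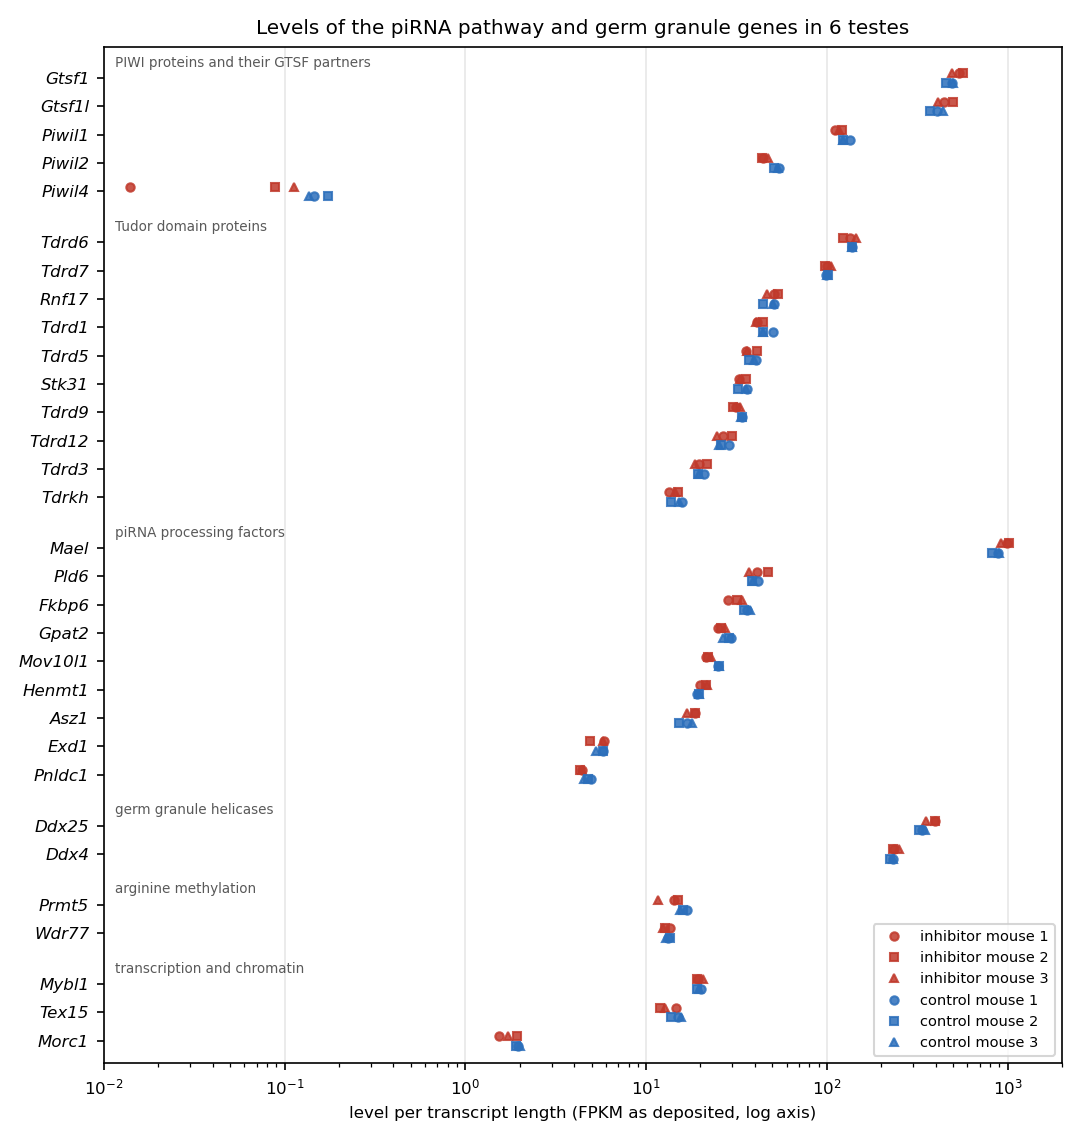
Level of each member on the FPKM scale as deposited (horizontal log axis), with 1 point per mouse. Members are grouped by role and ordered by their control mean within each role. Mael has the highest level, with means of 973 FPKM in inhibitor mice and 868 FPKM in control mice. Piwil4 has the lowest, with 0.0718 and 0.152 FPKM in the same groups.

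None of the 30 tested members passed the test between inhibitor and control mice. The test was edgeR's quasi-likelihood test on fragment counts, with Benjamini-Hochberg adjustment over all tested genes and a threshold of 0.05, at which 0.156% of the 16658 genes were called (0.0600% higher, 0.0960% lower). At an unadjusted p under 0.05, 10 of the 30 members were found, 3 higher and 7 lower in inhibitor mice, beside 17.9% of all tested genes, of which 9.43% were higher and 8.48% lower. In 11 members no inhibitor mouse overlapped a control mouse, 4 higher and 7 lower in inhibitor mice, beside 22.9% of all tested genes (11.0% higher, 11.9% lower). By direction alone, 13 members were higher and 17 lower, and their median log2 fold change was −0.04, against −0.00413 over all tested genes. The estimates ran from −0.24 for Prmt5 to 0.19 for Ddx25. Their standard errors lay between 0.0442 and 0.130, and their 95% intervals together reached from −0.47 to 0.32, so changes within that range were not resolved for every member.

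Other tests gave few calls. DESeq2 called 1 member, Piwil2, which was lower, where it called 4.96% of the 10844 genes to which it gave an adjusted p (3.39% higher, 1.57% lower). limma-voom called 0 members and 0.0840% of all genes, and limma on log2 FPKM called 0 members, beside 0.00% of all genes at a pseudocount of 1 and 0.00600% at 0.1, so these tests left little room for a member to be called. edgeR with no filter on low counts called Piwil2 alone, also lower, beside 0.559% of 20571 genes (0.282% higher, 0.277% lower). Without inhibitor mouse 3, edgeR called 6 members, with Ddx25, Mael and Gtsf1 higher and Piwil2, Mov10l1 and Fkbp6 lower in the 2 remaining inhibitor mice, beside 14.3% of 16871 genes (8.71% higher, 5.54% lower). Leaving out any of the other 5 mice in turn called 0 members, but 4 of those 5 fits called 0 genes in all, and the fit without control mouse 3 called 0.0596% of 16773 genes.

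**Figure D2:**
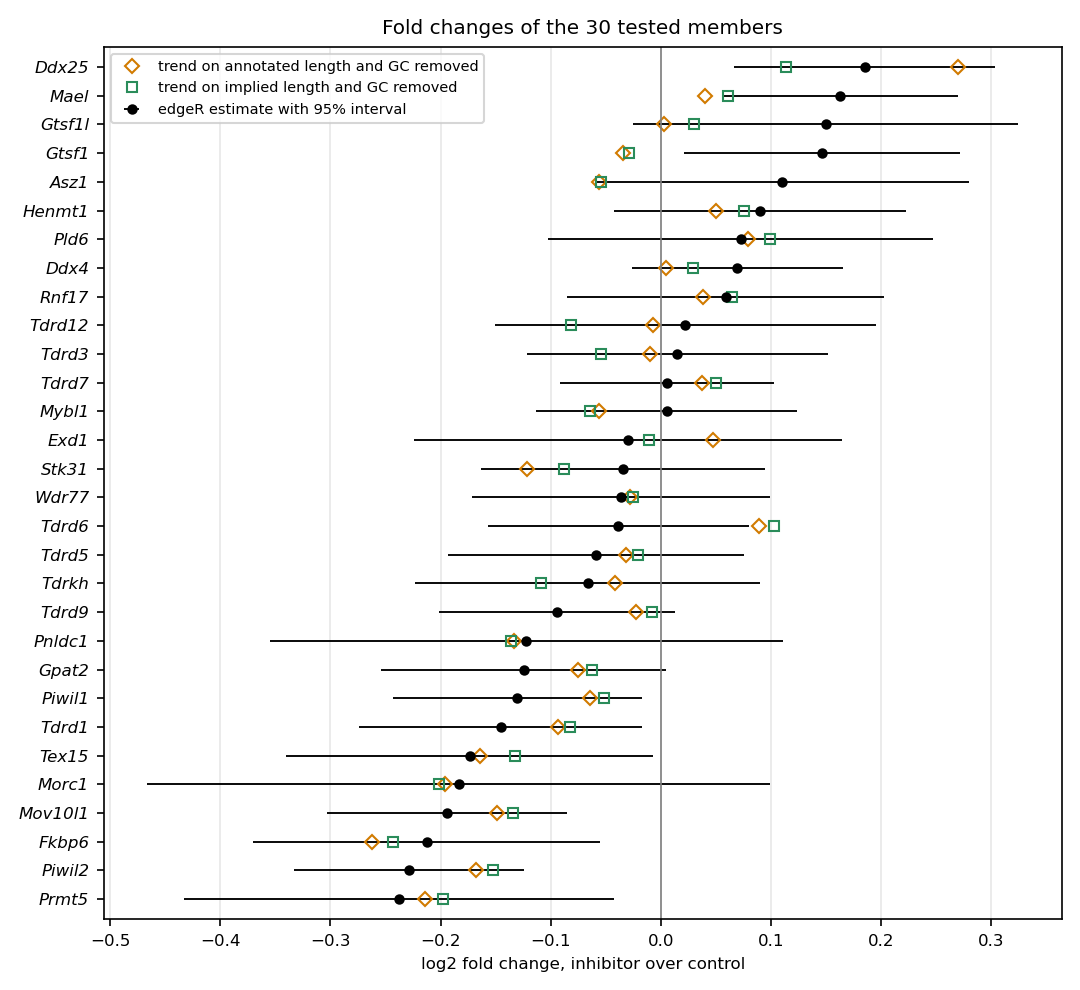
Log2 fold change of the 30 tested members, inhibitor over control (horizontal axis), with the edgeR estimate and its 95% interval as a point and a line, and the estimates after removal of the trend on annotated or implied transcript length and GC content as open symbols. Estimates run from −0.24 for Prmt5 to 0.19 for Ddx25. Ddx25 lies at 0.27 with the trend on annotated length removed and at 0.11 with that on implied length removed. Gtsf1 lies at −0.03 with either.

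PIWI proteins are the Argonaute-type effectors that carry the piRNAs. Piwil2 (MILI), which binds piRNAs both before birth and in the pachytene stage, had 214, 210 and 227 CPM (fragments scaled to library size, with TMM factors) in inhibitor mice 1, 2 and 3, against 261, 246 and 257 CPM in control mice 1, 2 and 3. Every inhibitor mouse lay below every control mouse. The log2 fold change of Piwil2 was −0.23 (SE 0.0480), the smallest p among the members, with an edgeR adjusted p of 0.0803. The call depended on the tool and on 1 mouse: the adjusted p of Piwil2 was 0.0136 by DESeq2, 0.0489 by edgeR with no filter and 0.00121 by edgeR without inhibitor mouse 3, and it reached 0.303 with another mouse left out.

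Piwil1 (MIWI), the partner of pachytene piRNAs, had 421, 463 and 443 CPM in inhibitor mice, against 514, 468 and 470 CPM in control mice. The groups did not overlap, but inhibitor mouse 2 and control mice 2 and 3 lay close together. Its log2 fold change was −0.13 (SE 0.0518, edgeR adjusted p = 0.217). Piwil4 (MIWI2), the nuclear PIWI protein of fetal germ cells, was near the limit of detection, with 1, 5 and 8 fragments in inhibitor mice and 9, 19 and 10 fragments in control mice. These are 0.0348, 0.219 and 0.280 CPM in inhibitor mice and 0.360, 0.433 and 0.340 CPM in control mice, so the groups did not overlap. Piwil4 did not pass the filter on low counts. With no filter its log2 fold change was −1.11 (SE 0.539, edgeR adjusted p = 0.337). It passed the filter without inhibitor mouse 3, at −1.68 (edgeR adjusted p = 0.101). It also passed without inhibitor mouse 1 or 2 or control mouse 3, at −0.60, −1.27 and −1.18, and was not called.

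The GTSF proteins bind PIWI proteins and help them to cut their targets. Gtsf1 had 285, 300 and 261 CPM in inhibitor mice, against 259, 242 and 263 CPM in control mice. Inhibitor mice 1 and 2 were above all controls and inhibitor mouse 3 was among them. The log2 fold change of Gtsf1 was 0.15 (SE 0.0574, edgeR adjusted p = 0.211), and 0.20 without inhibitor mouse 3 (edgeR adjusted p = 0.0107). Its paralogue Gtsf1l had 309, 345 and 283 CPM in inhibitor mice, against 282, 259 and 304 CPM in control mice. The groups overlapped, and Gtsf1l differed by 0.15 on the log2 scale (SE 0.0781, edgeR adjusted p = 0.351). Both are among the shortest transcripts of the members, and the sign of Gtsf1 turned when the trend on transcript length was removed, as described further on.

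Of the 10 tested members with Tudor domains, 4 were higher and 6 lower in inhibitor mice, with a median log2 fold change of −0.04 and a range of −0.15 to 0.06, and 1 had an unadjusted p under 0.05, beside 17.9% of all tested genes. That gene was Tdrd1, a scaffold of the intermitochondrial cement, with 197, 212 and 192 CPM in inhibitor mice, against 240, 213 and 212 CPM in control mice. Inhibitor mouse 2 reached the level of the lowest controls, so the groups overlapped narrowly, and the log2 fold change was −0.15 (SE 0.0590, edgeR adjusted p = 0.224). Tdrd9, a Tudor helicase that acts with MIWI2 in transposon silencing, had 148, 141 and 155 CPM in inhibitor mice, against 158, 159 and 157 CPM in control mice. All inhibitor mice lay below all controls, the difference being −0.09 on the log2 scale (SE 0.0494, edgeR adjusted p = 0.340). Tdrd5, needed for pachytene piRNAs and transposon repression, had 118, 135 and 119 CPM in inhibitor mice, against 134, 123 and 130 CPM in control mice. Inhibitor mouse 2 was above every control, and the log2 fold change was −0.06 (SE 0.0616, edgeR adjusted p = 0.653).

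Tdrd6, which gives the chromatoid body its architecture, had 944, 857 and 1010 CPM in inhibitor mice, against 961, 962 and 964 CPM in control mice. The control mice were nearly level while the inhibitor mice lay on both sides of them, with a log2 fold change of −0.04 and a 95% interval of −0.16 to 0.08. Tdrd7, which takes part in remodelling the chromatoid body, had a log2 fold change of 0.01 with a 95% interval of −0.09 to 0.10. The other Tudor members were Tdrd3, a reader of methylated arginine, Tdrd12, a partner of the processing factors, Tdrkh, which sits on mitochondria and helps to trim piRNAs, Rnf17, which limits the ping-pong cycle, and Stk31, which joins a Tudor to a kinase-like domain. Their log2 fold changes were 0.02 for Tdrd3, 0.02 for Tdrd12, −0.07 for Tdrkh, 0.06 for Rnf17 and −0.03 for Stk31, and the groups overlapped in each.

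**Figure D3:**
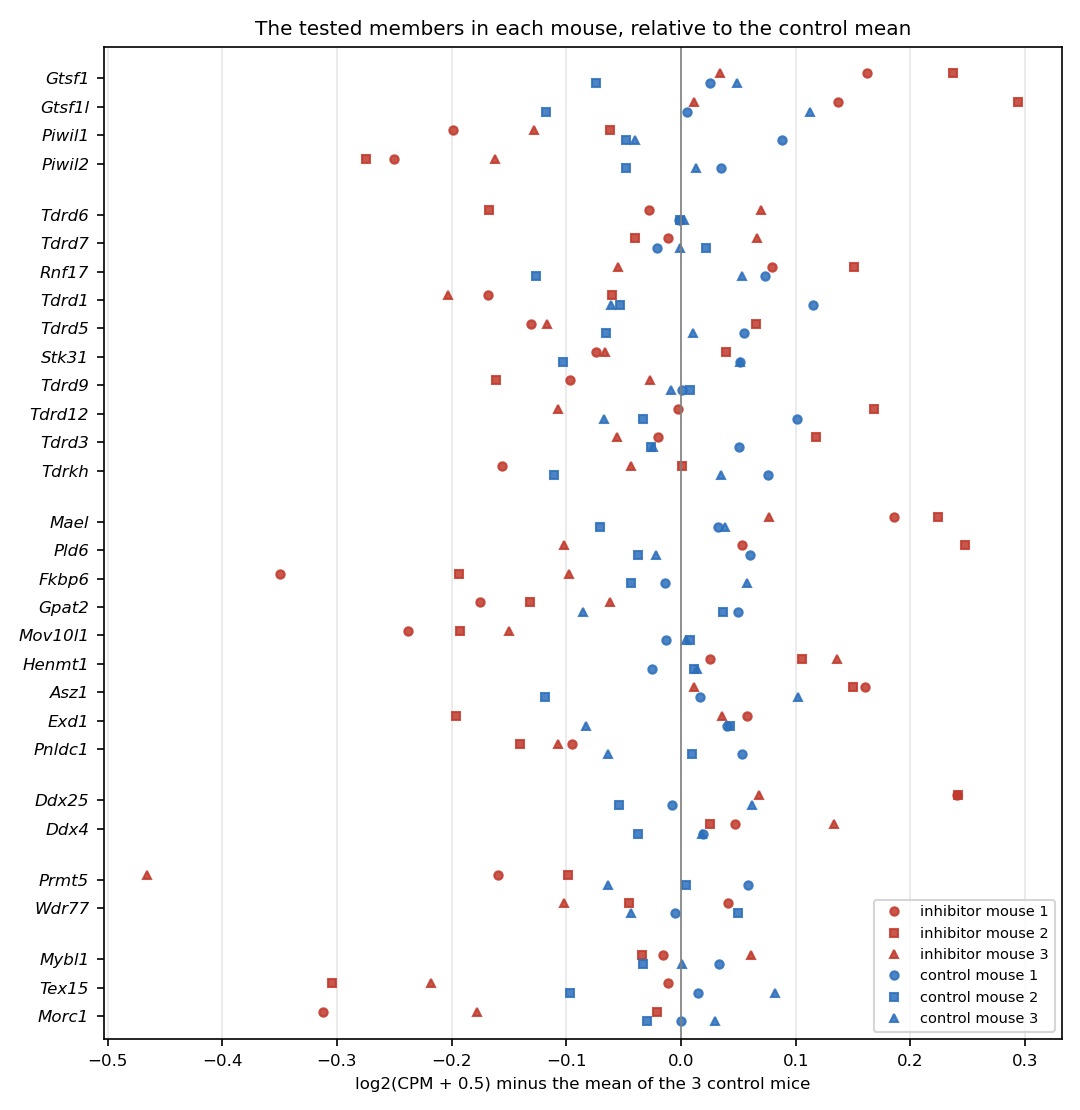
Each tested member in each mouse as log2(CPM + 0.5) minus the mean of the 3 control mice (horizontal axis), with 1 point per mouse in the colour of its group. The median over members is −0.02, −0.03 and −0.06 in inhibitor mice 1, 2 and 3 and 0.03, −0.04 and 0.01 in control mice 1, 2 and 3, so the groups overlap.

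The 9 processing factors moved in both directions, 4 higher and 5 lower in inhibitor mice, with a median log2 fold change of −0.03. Mov10l1, the RNA helicase that binds piRNA precursors and feeds them into primary processing, had 84.0, 86.6 and 89.3 CPM in inhibitor mice, against 98.2, 99.7 and 99.4 CPM in control mice. The groups were well apart, and the control mice were nearly level. Its log2 fold change was −0.19 (SE 0.0501, edgeR adjusted p = 0.103), and the adjusted p was 0.0501 by DESeq2 and 0.00831 by edgeR without inhibitor mouse 3. Fkbp6, an immunophilin that acts with a heat shock chaperone in loading piRNAs, had 34.4, 38.5 and 41.1 CPM in inhibitor mice, against 43.6, 42.7 and 45.8 CPM in control mice. Each inhibitor mouse was below each control, and the log2 fold change was −0.21 (SE 0.0726, edgeR adjusted p = 0.159), with 0.0133 as the edgeR adjusted p without inhibitor mouse 3. Mael had 1353, 1390 and 1254 CPM in inhibitor mice, against 1216, 1133 and 1221 CPM in control mice. Its groups did not overlap, inhibitor mouse 3 being the nearest to the controls. The log2 fold change of Mael was 0.16 (SE 0.0491, edgeR adjusted p = 0.129), and the edgeR adjusted p without inhibitor mouse 3 was 0.00404.

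The enzymes that finish a piRNA differed in direction. Henmt1, the methyltransferase that caps the 3′ end with a 2′-O-methyl group, had 37.1, 39.3 and 40.1 CPM in inhibitor mice, against 35.8, 36.8 and 36.8 CPM in control mice. Pnldc1, the exonuclease that trims that end, had 6.74, 6.52 and 6.68 CPM in inhibitor mice, against 7.53, 7.29 and 6.90 CPM in control mice. Neither pair of groups overlapped, and the edgeR adjusted p was 0.471 for Henmt1 and 0.587 for Pnldc1, with log2 fold changes of 0.09 and −0.12. Pld6, the mitochondrial nuclease of primary processing, had a log2 fold change of 0.07, and Asz1, a scaffold on mitochondria, one of 0.11. Gpat2, an acyltransferase of the mitochondrial membrane, had −0.12, and Exd1, a partner of Tdrd12, had −0.03. In these 4 genes the groups overlapped.

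Promoters of the 4 tested members of smallest p that have a RefSeq window, and of Piwil1, are shown because A-MYB is the known activator of many genes of the pathway and because these members lay on both sides of the controls. The windows, credited to RefSeq (GRCm38.p6), run from 250 bases before to 50 after a start. Each sequence is the part of the window nearest the start that lies outside annotated exons, 5′ to 3′ on the strand of the gene, with matches to AACNGNC, a spelling of the MYB motif, in capitals on either strand. The stretches are chr15:88982744-88982908 (plus strand) for Mov10l1, chr1:166238748-166238994 (minus strand) for Mael and chr5:128736030-128736173 (plus strand) for Piwil1, which hold 2, 1 and 1 matches. Stretches that hold none are chr9:35558529-35558594 (minus strand) for Ddx25 and chr5:135350045-135350294 (minus strand) for Fkbp6. Over the whole window, which runs on past the printed stretch, Fkbp6 has 1 match, Piwil1 has 3 and Ddx25 has 0.
Mov10l1: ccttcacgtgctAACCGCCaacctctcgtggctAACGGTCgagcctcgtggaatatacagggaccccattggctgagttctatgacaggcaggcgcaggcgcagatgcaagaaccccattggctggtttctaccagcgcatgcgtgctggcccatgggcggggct
Mael: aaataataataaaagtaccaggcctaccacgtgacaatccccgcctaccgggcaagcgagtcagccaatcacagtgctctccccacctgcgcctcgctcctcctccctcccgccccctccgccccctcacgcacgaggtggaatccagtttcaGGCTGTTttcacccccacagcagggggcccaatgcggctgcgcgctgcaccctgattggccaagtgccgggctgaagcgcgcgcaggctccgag
Piwil1: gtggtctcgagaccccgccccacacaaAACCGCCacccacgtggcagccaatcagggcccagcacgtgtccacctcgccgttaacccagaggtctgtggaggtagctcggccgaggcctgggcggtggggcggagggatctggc
Ddx25: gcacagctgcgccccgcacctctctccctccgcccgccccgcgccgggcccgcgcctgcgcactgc
Fkbp6: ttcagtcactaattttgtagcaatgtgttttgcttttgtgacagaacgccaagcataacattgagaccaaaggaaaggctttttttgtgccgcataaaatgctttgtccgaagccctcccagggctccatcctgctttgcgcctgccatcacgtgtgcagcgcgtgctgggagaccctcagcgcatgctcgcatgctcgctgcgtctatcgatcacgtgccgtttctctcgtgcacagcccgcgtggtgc

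RefSeq windows were found for 25 of the 32 listed genes, 34 windows in all, since some genes have several starts that share sequence. AACNGNC, searched on both strands, was in 58.8% of the member windows, against 32.8% of all 32851 windows and 33.4% of those of tested genes. Counted by gene, it was in 14 of 25 members (56%), against 36.0% of all genes. The other spellings gave 14.7% of member windows against 13.7% of all windows for CAACTG, 41.2% against 44.8% for AACTG and 88.2% against 80.3% for AACNG. These spellings overlap, since AACTG lies within CAACTG and each AACNGNC holds AACNG, and they were chosen after member windows had been looked at. The member windows were also richer in G and C, with a median of 62.7% against 52.7% of all windows and 59.3% of those of tested genes, and the part of this composition in the motif shares was not tested. A match is a description of the letters only.

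The helicases of the germ granule were both higher in inhibitor mice. Ddx25, which carries mRNAs to the chromatoid body and acts in their translation in spermatids, had 597, 597 and 529 CPM in inhibitor mice, against 502, 486 and 527 CPM in control mice. Inhibitor mice 1 and 2 were well above the controls, and inhibitor mouse 3 was just above control mouse 3. Its log2 fold change, 0.19 with an SE of 0.0544 (edgeR adjusted p = 0.123), was the highest of the members, and the edgeR adjusted p without inhibitor mouse 3 was 0.00170. Ddx4 (mouse vasa homologue), the helicase by which germ granules are recognised, had 638, 628 and 677 CPM in inhibitor mice, against 626, 601 and 625 CPM in control mice. The groups lay close together without overlapping, and the log2 fold change was 0.07 (SE 0.0442, edgeR adjusted p = 0.438).

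Prmt5 methylates the arginines of PIWI proteins that Tudor domains bind, and Wdr77 is its constant partner. Prmt5 had 35.7, 37.2 and 28.8 CPM in inhibitor mice, against 41.6, 40.0 and 38.2 CPM in control mice. The groups did not overlap, and inhibitor mouse 3 was far below the others. The log2 fold change of Prmt5 was −0.24 (SE 0.0895, edgeR adjusted p = 0.197), the lowest estimate with all 6 mice. Without inhibitor mouse 3 it was −0.13 (edgeR adjusted p = 0.184), and Fkbp6 at −0.28, Piwil2 at −0.26 and Mov10l1 at −0.22 were lower. Wdr77 had 46.4, 43.7 and 42.0 CPM in inhibitor mice, against 44.9, 46.7 and 43.7 CPM in control mice. Its groups overlapped, and they differed by −0.04 on the log2 scale (SE 0.0623, edgeR adjusted p = 0.808).

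Of the genes of transcription and chromatin, Mybl1 did not differ detectably. It had 66.3, 65.5 and 70.0 CPM in inhibitor mice, against 68.6, 65.5 and 67.1 CPM in control mice. The groups lay over each other, and the log2 fold change of 0.01 had a 95% interval of −0.11 to 0.12 (edgeR adjusted p = 0.973). Tex15, which acts with MIWI2 in methylating transposons, had 123, 100 and 106 CPM in inhibitor mice, against 125, 116 and 131 CPM in control mice. Inhibitor mouse 1 lay among the controls, and the log2 fold change was −0.17 (SE 0.0758, edgeR adjusted p = 0.259). Morc1, a repressor of transposons in the male germ line, had 4.48, 5.60 and 4.97 CPM in inhibitor mice, against 5.69, 5.56 and 5.82 CPM in control mice. Inhibitor mouse 2 exceeded control mouse 2, and the log2 fold change was −0.18 (SE 0.130, edgeR adjusted p = 0.491). Btbd18, which lets RNA polymerase run through pachytene piRNA loci, is listed under its older symbol Gm13718 and is not counted among the members above. It had 4.66, 4.46 and 5.18 CPM in inhibitor mice, against 6.29, 5.31 and 5.31 CPM in control mice. The groups of Btbd18 did not overlap, and the log2 fold change was −0.23 (SE 0.134, edgeR adjusted p = 0.383).

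Without inhibitor mouse 3, further estimates that no test called moved by more than 1.5 times. Towards 0 these were Ddx4 at 0.04, Tdrd5 at −0.03, Stk31 at −0.02 and Wdr77 at −0.0027. Away from 0 they were Tdrd6 at −0.10, Rnf17 at 0.11, Tdrd3 at 0.05, Tdrd12 at 0.08, Pld6 at 0.15 and Exd1 at −0.06. Tdrd7 and Mybl1 changed sign, to −0.03 and −0.02.

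The members' fold changes moved with transcript length. Fold changes of all tested genes with a length were lower for longer transcripts, with a Pearson r of −0.29 over 16491 genes against the length of the longest annotated transcript. Over the 30 members the r was −0.33 against that length, and −0.53 against the length implied by the deposited values, taken as CPM over FPKM, where all tested genes with a length gave −0.31. These correlations are across genes, which are not independent replicates. The implied length of Ddx25 was 1501 bases, 21.7% of its longest annotated transcript of 6934 bases, and for Tdrd12 and Tdrkh it was 39.6% and 43.8% of the annotated one. Among members with an implied length under 2500 bases, 8 of 13 were higher in inhibitor mice (median log2 fold change 0.07), and among the 17 longer members 5 were higher (median −0.04). With the trend on implied length and GC content removed from each library, the median was −0.05 in both groups, with 5 of 13 and 4 of 17 higher. Removal of a trend on length draws short and long genes together by construction. The cut at 2500 bases and the implied length were chosen after the data were seen.

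Removal of these trends called 0 members with either length by edgeR. At an unadjusted p under 0.05 it left 7 members with annotated length, 1 higher and 6 lower, beside 13.3% of all genes (8.04% higher, 5.27% lower), and 6 members with implied length, 2 higher and 4 lower, beside 13.7% (8.25% higher, 5.43% lower). With the trend on annotated length removed, the log2 fold change was −0.17 for Piwil2, −0.15 for Mov10l1, −0.26 for Fkbp6, 0.04 for Mael, 0.27 for Ddx25 and −0.03 for Gtsf1. With the trend on implied length removed it was −0.15 for Piwil2, −0.13 for Mov10l1, −0.24 for Fkbp6, 0.06 for Mael, 0.11 for Ddx25 and −0.03 for Gtsf1. With implied length the direction turned in 6 members, to −0.03 in Gtsf1, −0.05 in Asz1, −0.05 in Tdrd3, −0.08 in Tdrd12, −0.06 in Mybl1 and 0.10 in Tdrd6 (edgeR adjusted p = 0.300 for Tdrd6). The estimates of Piwil2, Mael and Ddx25 were smaller by more than 1.5 times, and so were Piwil1 at −0.05, Tdrd1 at −0.08, Tdrd9 at −0.00786, Tdrd5 at −0.02, Gpat2 at −0.06, Gtsf1l at 0.03, Ddx4 at 0.03 and Exd1 at −0.01. Those of Tdrkh at −0.11, Stk31 at −0.09 and Tdrd7 at 0.05 were larger by as much. The part of length and composition in the members' differences was not tested further.

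**Figure D4:**
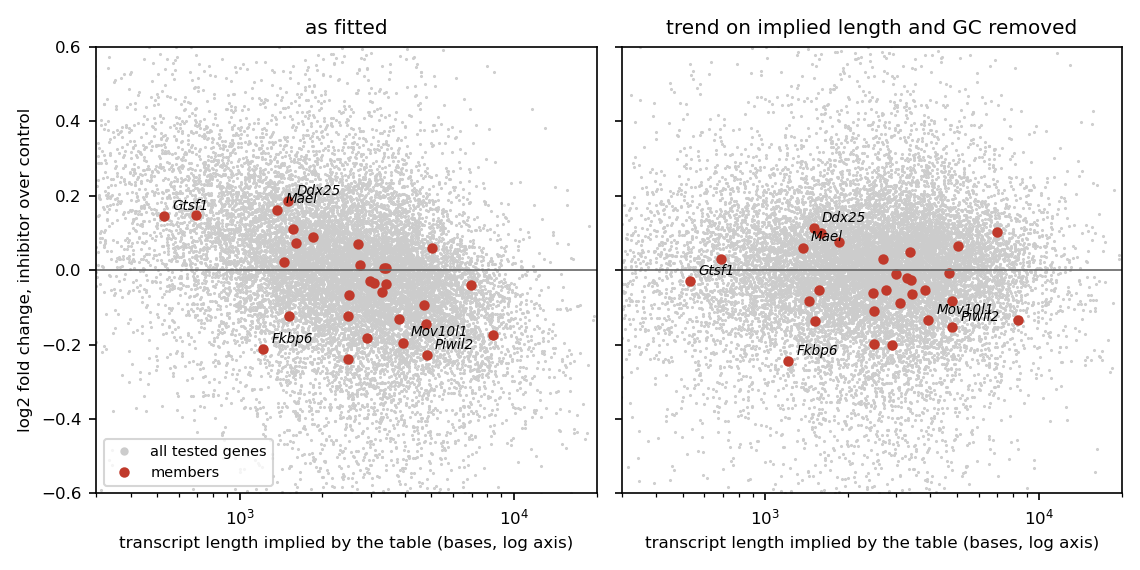
Log2 fold change, inhibitor over control (vertical axis), against the transcript length implied by the deposited values (horizontal log axis), as fitted on the left and with the trend on implied length and GC content removed on the right, for all tested genes in grey and members in red. The members' r against log2 implied length is −0.53 on the left and −0.08 on the right. The trend removed on the right is on that same length, so a smaller r there is built in.

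Genes of neighbouring pathways were read from lists chosen with earlier results of these data known. Of 18 other piRNA and germ granule genes, 5 were higher and 13 lower in inhibitor mice, with a median log2 fold change of −0.07, which was −0.03 with the trend on annotated length and GC removed. edgeR called 0 of them, with 4 at an unadjusted p under 0.05 beside 17.9% of all tested genes. In this list Mov10, a helicase related to Mov10l1, ran between 18.0 and 22.1 CPM in inhibitor mice, against 23.7 to 27.9 CPM in control mice. Its log2 fold change was −0.36 (SE 0.0935, edgeR adjusted p = 0.104), and no value overlapped. Tex19.1, a repressor of retrotransposons in germ cells, had 6.85, 8.79 and 9.34 CPM in inhibitor mice, against 11.2, 11.7 and 11.0 CPM in control mice, a difference of −0.44 on the log2 scale (SE 0.118, edgeR adjusted p = 0.105). Of 13 genes of the microRNA and siRNA machinery, 2 were higher and 11 lower, with a median of −0.15, which was −0.02 with the same trend removed. In that list 7 genes had an unadjusted p under 0.05 by edgeR, beside 17.9% of all tested genes. Lower without overlap were 6, beside 11.9% of all tested genes. Both counts were taken without removal of that trend. Dicer1, the nuclease that makes microRNAs, had 24.5, 24.3 and 28.1 CPM in inhibitor mice, against 32.9, 33.9 and 31.9 CPM in control mice (log2 fold change −0.36, SE 0.0743, edgeR adjusted p = 0.0783). Drosha, which cuts their primary transcripts, had 45.7, 45.7 and 47.2 CPM in inhibitor mice, against 53.1, 57.1 and 55.3 CPM in control mice (log2 fold change −0.26, SE 0.0572, edgeR adjusted p = 0.0836). Neither gene passed the test with all 6 mice, and in both the inhibitor mice lay below all controls. Without inhibitor mouse 3 the edgeR adjusted p was 0.00388 for Mov10, 0.00750 for Tex19.1, 0.000849 for Dicer1 and 0.00621 for Drosha. That fit called 14.3% of 16871 genes.

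Markers of the cell types of the testis were read beside the members. Of 13 tested genes of undifferentiated spermatogonia, the cells on which GDNF acts, 4 fell past the threshold, beside 0.0960% of all tested genes that were called lower (edgeR adjusted p of 0.0199 for Ret, 0.0319 for Sox3, 0.0319 for Zbtb16 and 0.0484 for Lin28a), with log2 fold changes of −1.91 for Ret, −1.50 for Sox3, −0.99 for Zbtb16 and −1.13 for Lin28a. These 4 calls were lost without inhibitor mouse 1 or 2 or control mouse 1 or 2, and by limma on either FPKM scale. All 4 were also lost with the mouse number as a replicate block and the length and GC trend removed. Of the 4, 3 were lost without control mouse 3 and 2 with the replicate block alone. With at least 50 counts in 3 libraries 1 was lost, and 1 with the trend on implied length and GC removed. With 1 mouse left out the edgeR adjusted p reached 0.157 for Ret and 0.237 for the other 3. The log2 fold change of Ret then ran between −2.01 and −1.80. Ret lay at 0.487 to 0.656 CPM in inhibitor mice, against 1.84 to 2.39 CPM in control mice. Sox3 lay at 0.904 to 1.64 CPM, against 3.32 to 4.28 CPM in the same groups. The median of the spermatogonial list was −0.50, and −0.43 with the trend on implied length and GC removed. As fitted, 1 of its 13 genes was higher, with a range of −1.91 to 0.07. Its genes summed to 84.9 to 101 CPM in inhibitor mice, against 115 to 117 CPM in control mice. Pachytene spermatocyte markers, from the stage at which piRNAs abound, summed to 7099 to 7225 CPM in inhibitor mice, against 6518 to 6790 CPM in control mice, with 8 of 9 genes higher, a median of 0.17, and 0.10 after removal of the trend on implied length. Elongating spermatid markers summed to 19954 to 21553 CPM in inhibitor mice, against 18347 to 19304 CPM in control mice, with 9 of 10 genes higher and a median of 0.15, and 0.06 after the same removal. Round spermatid markers had a median of 0.06, with 7 of 10 genes higher, and the median turned to −0.05 after that removal. The members summed to 6567 to 6736 CPM in inhibitor mice, against 6321 to 6646 CPM in control mice, and these ranges overlapped. The part of the shift in spermatocyte and spermatid markers in the members' values was not tested.

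Markers of the cells that surround the germ line were mostly lower in inhibitor mice, without a call by edgeR with all 6 mice. The medians were −0.11 for Sertoli cells (0 of 10 genes higher), −0.08 for Leydig cells (2 of 8 higher), −0.23 for peritubular myoid cells (0 of 6 higher) and −0.05 for macrophages (2 of 8 higher). With the trend on implied length and GC removed, these medians were −0.09, −0.09, −0.14 and −0.03 in the same order. Macrophage markers summed to 407 to 447 CPM in inhibitor mice, against 364 to 378 CPM in control mice, opposite to their median. Most of that sum was 1 gene, Aif1, at 354 to 391 CPM in inhibitor mice, against 319 to 321 CPM in control mice. The 3 tested blood genes had a median of 0.00261, and −0.16 with the trend on implied length and GC removed. Of that list, 1 further gene was at 0. The genes of smallest p in these lists were Tbpl1 (0.24) and Pou5f2 (0.26) for pachytene spermatocytes, Zpbp2 (0.27) and Catsper1 (−0.15) for round spermatids, and Akap4 (0.17) and Cabs1 (0.20) for elongating spermatids, each with its log2 fold change. In the somatic lists they were Amh (−0.65) and Sox9 (−0.17), Nr5a1 (−0.17) and Insl3 (−0.22), Mylk (−0.22) and Cnn1 (−0.46), Aif1 (0.20) and Lyz2 (0.32), and Alas2 (0.06) and Hba-a1 (−0.05). With the trend on annotated length and GC removed, Tbpl1 was 0.17, Pou5f2 0.19, Zpbp2 0.16, Catsper1 −0.17, Akap4 0.14 and Cabs1 0.03. By that fit Amh was −0.56, Sox9 −0.14, Nr5a1 −0.07, Insl3 −0.23, Mylk −0.06 and Cnn1 −0.46. Aif1 was then 0.08, Lyz2 0.21, Alas2 0.06 and Hba-a1 −0.14. None of these genes passed the test with all 6 mice. Without inhibitor mouse 3, edgeR called Tbpl1, Pou5f2, Zpbp2, Akap4, Cabs1, Sox9, Nr5a1, Mylk, Aif1 and Lyz2, beside 14.3% of 16871 genes. The remaining genes of this enumeration were not called in that fit.

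**Figure D5:**
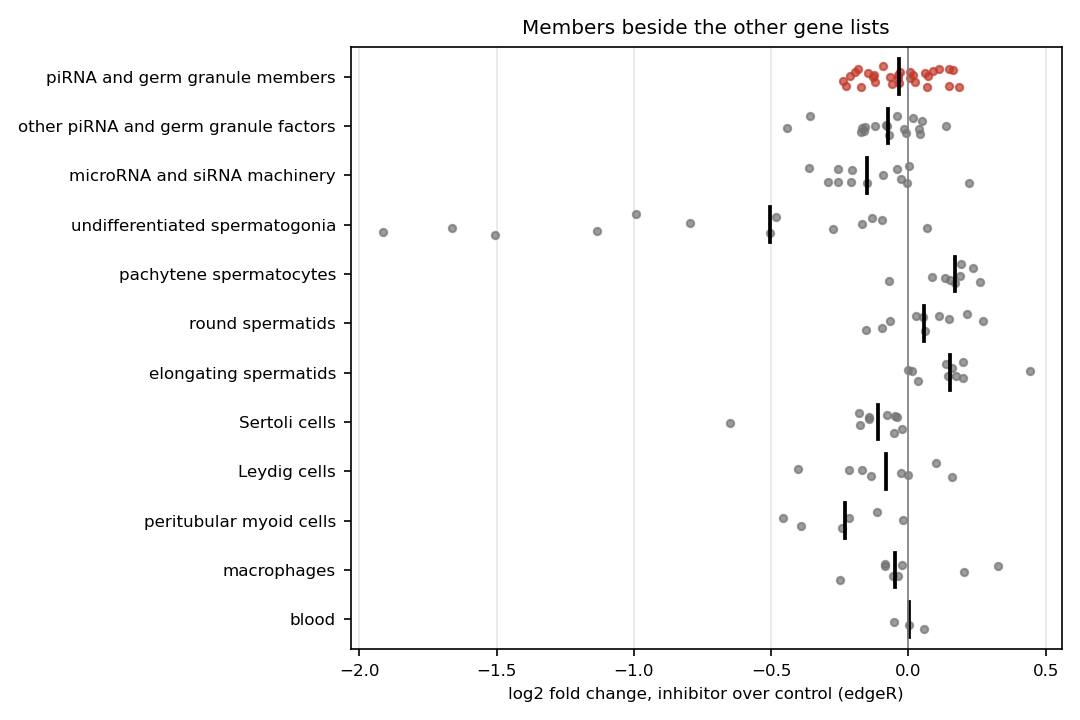
Log2 fold change, inhibitor over control by edgeR (horizontal axis), of every tested gene in the members and in each further list, with 1 point per gene and a bar at the list's median. The members lie around a median of −0.04, the undifferentiated spermatogonia around −0.50 and the pachytene spermatocytes around 0.17.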

How the data were processed

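Polyadenylated RNA from whole testes of 6 mice (500 ng of input per library, strand-marking kit) was read as single ends of 81 nt, per the labels' protocols. Per the submitters' processing notes, the tools were TopHat2 2.0.13, Cuffdiff 2.2.1 and cutadapt 1.8 and the build was mm10; which annotation was counted, and whether by strand, is not given in the sources used here. The authors deposited expected counts (fragments per gene and mouse) and FPKM values. Of 140166 count values 98.8% were whole (tolerance 1e-06); they were rounded. FPKM values served for levels and 2 alternatives. CPM were computed here.

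The groups were compared by edgeR 4.0.16, run in R 4.3.3 (filterByExpr, TMM, robust quasi-likelihood test, two-sided, Benjamini-Hochberg over 16658 genes). The standard errors of edgeR estimates were derived from the test, as the absolute log2 fold change over the square root of its F statistic. The 95% intervals were built from these standard errors. The common biological coefficient of variation was 8.02%. Other tools were DESeq2 1.42.0 and limma 3.58.1. The length and GC trend of each library was fitted by loess (span 0.5) over genes whose mean log2 CPM exceeded 1, and served as an offset, with transcripts from GENCODE M21 (GRCm38, the assembly of mm10). A second fit with the length implied by the deposited values was added after the data were seen. The procedure was tested on simulated data. The changes planted in single genes there were larger than any estimate of the members, and no simulated mouse stood apart. That simulation therefore does not show what differences could be resolved among the members. With separate mice per library, each edgeR p-value weighs a difference against the spread between 3 mice per group. The estimate of that spread also draws on the other genes.

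Exons of Piwil4, Tdrd5, Tdrkh, Henmt1, Pnldc1 and Wdr77 overlap a gene on the opposite strand (Gm10706, 4930518J20Rik, Oaz3, Gm9857, AL589878.1 and Atp5f1), so their counts are uncertain if counting ignored strand. Exons of Wdr77 also overlap Gm42890 on the same strand, so its count may be uncertain with counting by strand as well. Values in every mouse are given for Piwil1, Piwil2, Piwil4, Mybl1 and Ddx4, for the 3 genes of smallest p in each role (all in roles of 4 or fewer) and for the highest and lowest fold change; Gtsf1l, Tdrd6, Henmt1, Pnldc1 and Btbd18 were added after their values were seen. For other lists, genes past the threshold and the 2 of smallest p are named. Members and lists were chosen with earlier results of these data known. Of 112 list symbols 110 matched, 6 through an older symbol.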

Additional observations from a re-analysis of the deposited data

How the results depend on the processing

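The count of members past the threshold was 0, and it was 1 by DESeq2, 1 with no filter on low counts and 0 to 6 with 1 mouse left out, the 6 coming without inhibitor mouse 3. The members' median of −0.04 was −0.066 with library totals alone, where the median of all genes was −0.03, and −0.05 to −0.02 with 1 mouse left out. The count of members without overlap was 11, beside 22.9% of all tested genes. It was 11 to 18 with 1 mouse left out, where fewer mice per group make overlap rarer. The share of all genes was not computed for those fits, so their counts are not a result about the members. The 26 genes past the threshold became 538 by DESeq2, 14 by limma-voom, 0 and 1 by limma on log2(FPKM + 1) and log2(FPKM + 0.1), 115 with no filter, 10 with at least 50 counts in 3 libraries, 16 with the implied length and GC trend removed and 0 to 2405 with 1 mouse left out; the cause was not tested. With the mouse number as a replicate block 5 genes and 0 members were called, the members' median was −0.04, and with the length and GC trend removed as well 2 genes were called. Same-numbered mice correlated at 0.0962, −0.07 and 0.0637, and not every mouse correlated best with its own number. These weak correlations do not show a pairing by number, and they cannot exclude one. Among members and Btbd18, 543 values under the alternatives kept their direction and side of the threshold, 8 passed it and 35 changed sign. With library totals alone, Tdrd3 was −0.016, Tdrd7 −0.025, Tdrd12 −0.0085 and Mybl1 −0.025. With the annotated length and GC trend removed, Gtsf1 was −0.034, Tdrd3 −0.0097, Tdrd6 0.089, Tdrd12 −0.0074, Asz1 −0.056, Exd1 0.047 and Mybl1 −0.057; with the replicate block as well these were −0.035, −0.0094, 0.088, −0.0076, −0.057, 0.042 and −0.059. With the implied length and GC trend removed, Gtsf1 was −0.029, Tdrd3 −0.054, Tdrd6 0.10, Tdrd12 −0.082, Asz1 −0.055 and Mybl1 −0.065. With 1 mouse left out, Tdrd3 ran between −0.038 and 0.050, Tdrd6 −0.096 and 0.022, Tdrd7 −0.026 and 0.028, Tdrd12 −0.055 and 0.085, Stk31 −0.082 and 0.00046, Pld6 −0.022 and 0.15, Exd1 −0.076 and 0.046, and Mybl1 −0.024 and 0.024. Among named genes of other lists, 383 values kept direction and side, 26 passed the threshold, 35 no longer passed it and 4 changed sign with 1 mouse left out, where Alas2 ran between −0.036 and 0.19 and Hba-a1 between −1.16 and 0.34. Groups of 3 mice, with standard errors of 0.0442 to 0.130, limit what differences could be resolved, and Piwil4 rests on 1 to 19 fragments per mouse.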
